A study of Mus with 6 samples.

Results

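A set of 10 genes of pericellular proteolysis were examined in 4T1 cells, a mouse mammary carcinoma line, with and without isopimaric acid (IPA), a plant diterpene acid. They were fixed by name and Ensembl ID. The matrix metalloproteinases are Mmp2 (ENSMUSG00000031740), Mmp3 (ENSMUSG00000043613), Mmp9 (ENSMUSG00000017737), Mmp13 (ENSMUSG00000050578) and Mmp14 (ENSMUSG00000000957). The tissue inhibitors are Timp1 (ENSMUSG00000001131), Timp2 (ENSMUSG00000017466) and Timp3 (ENSMUSG00000020044). The urokinase gene is Plau (ENSMUSG00000021822) and its receptor gene is Plaur (ENSMUSG00000046223). All 10 were among the 35304 IDs with read counts. The 3 untreated libraries and the 3 IPA libraries came from 4T1 cells in serum-containing medium, and the treated cells received 10 µg/mL IPA for 24 h. Both groups share the line, and the labels name no engineered allele. They do not say whether replicates were separate cultures or whether untreated cells received the solvent. The p-values therefore reflect only how far these libraries differed from each other, and that spread may be technical.

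Matrix metalloproteinases are zinc enzymes that cut collagens and other matrix proteins. They are made as inactive precursors, and the tissue inhibitors of metalloproteinases (TIMPs) bind and block their active site. Urokinase, held at the cell surface by its receptor, turns plasminogen into plasmin, which cuts matrix proteins and activates several metalloproteinase precursors. Gelatinases and the urokinase system are much studied in mammary tumours because invading cells must pass basement membrane and collagen. The series title names metastasis, and the comparison asks whether the transcripts of this system differed in cells given IPA.

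Mmp13 (collagenase) and Timp1 were lower with IPA, and the other 8 transcripts did not pass the edgeR test with or without untreated replicate 2, though Mmp3 passed under some other settings. The levels of Mmp13 and Timp1 lay below the untreated range in all 3 IPA libraries. Whether edgeR called them depended on 1 library, untreated replicate 2. Without it, Mmp13 fell 3.57-fold and Timp1 fell 1.75-fold. With it, neither passed in edgeR, although the fitted folds were larger, at 4.87-fold and 3.1-fold lower. Limma-voom without sample quality weights also called neither (limma-voom adjusted p = 0.585 for each). DESeq2 called Mmp13 there and not Timp1, and limma-voom with sample quality weights called both. For Mmp9, Mmp14 and Plau, all IPA levels, scaled by library totals alone, lay inside the range of the untreated libraries. Plaur lay above that range in all 3 IPA libraries without passing the test.

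Depth and an outlying library bear on every value. Library totals ran from 3410411 counts in IPA replicate 1 to 58924711 in untreated replicate 2, so that 3 counts corresponded to between 0.0509 and 0.88 CPM (counts per 1000000 reads counted). Untreated replicate 2 correlated with the other 5 libraries at 0.779 to 0.811 in log2 CPM across genes, against 0.922 to 0.987 among those 5. Each result is therefore given with and without it. The labels name no batch. Epithelial and other cell type markers were not analysed here, since the reference at hand pairs no Ensembl ID with a symbol. In bulk RNA, fewer cells that express a gene and less RNA per cell cannot be told apart.

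Positions are from RefSeq on GRCm38.p6, matched by symbol. Mmp13 lies on chromosome 9 from 7272514 to 7283333, and Mmp3 on the same chromosome from 7445822 to 7455975, 162 kb further along. They belong to a cluster in which 10 metalloproteinase genes lie within 1 Mb, with Mmp12 and Mmp1b between them. Mmp2 is on chromosome 8 (92827290 to 92853421) and Mmp9 on chromosome 2 (164940326 to 164955850). Mmp14 (54431598 to 54442456) and Plau (20836662 to 20843388) are both on chromosome 14, and Plaur is on chromosome 7 (24460937 to 24475970).

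The inhibitor genes share their loci with other genes. Timp1, on chromosome X from 20870166 to 20874737, lies wholly inside the span of Syn1. Timp3, on chromosome 10 from 86300412 to 86349505, lies wholly inside Syn3. Timp2, on chromosome 11 from 118301061 to 118355411, overlaps Cep295nl over 10183 bp, and Mmp2 overlaps a noncoding gene, Gm45472, over 612 bp. Only whole gene spans were compared here, not exons, and how strand was handled in counting is not given in the sources used. Whether reads of the overlapping genes entered these counts was therefore not tested. Sequences and transcript lengths were not used here, so levels are compared between libraries and not between genes.

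**Figure D1:**
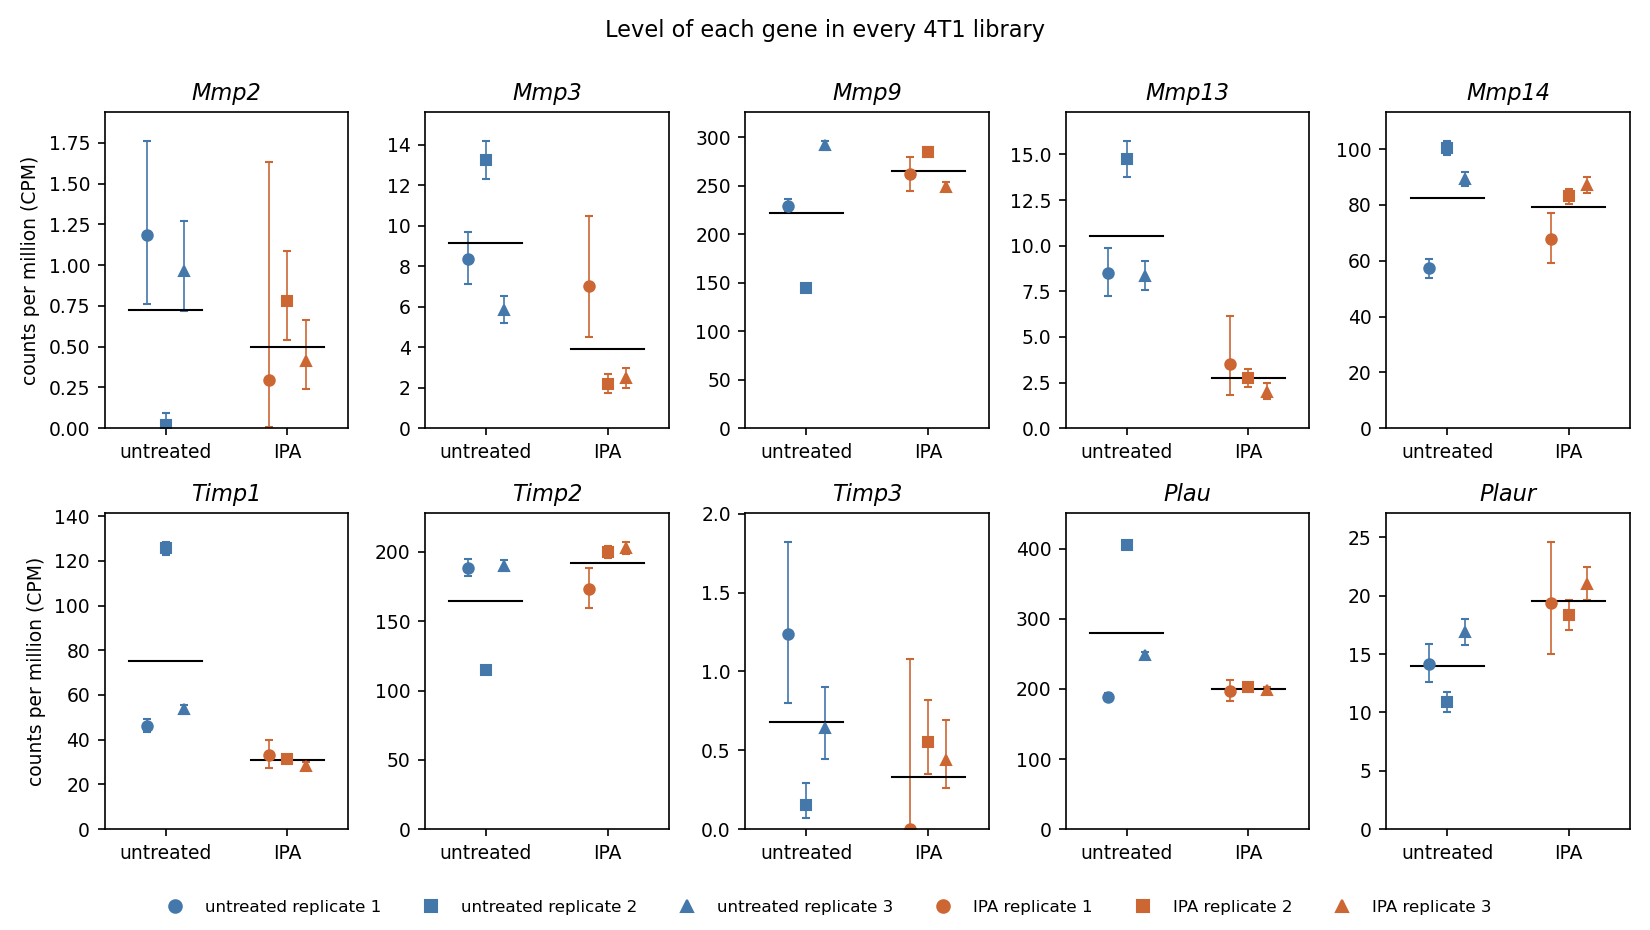
Level of each of the 10 genes in CPM (vertical axes from 0, a scale per panel) in the 3 untreated (blue) and 3 IPA (orange) libraries. Error bars are 95% exact Poisson intervals of the count and cover counting error only; black lines are group means. Mmp13 and Timp1 lie lower in every IPA library, Plaur lies higher, and untreated replicate 2 (blue square) is the highest or lowest untreated library for all 10 genes.

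Mmp13, an interstitial collagenase, had the most negative log2 fold change of the 10 genes both with and without untreated replicate 2. Its level was 8.49, 14.7 and 8.34 CPM in untreated replicates 1, 2 and 3, and 3.52, 2.73 and 2.00 CPM in IPA replicates 1, 2 and 3. The groups did not overlap, and untreated replicate 2 was the highest library. The group means were 10.5 ± 3.65 CPM untreated and 2.75 ± 0.76 CPM with IPA (SD, n = 3 each). IPA replicate 1 held only 12 reads of Mmp13, with a 95% Poisson interval of 1.82 to 6.15 CPM that still lay below all untreated values.

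For Mmp13 the log2 fold change without untreated replicate 2 was -1.84 ± 0.29 (SE; edgeR adjusted p = 0.00158), with a 95% interval of -2.44 to -1.23. With all 6 libraries it was -2.28 ± 0.49 (edgeR adjusted p = 0.657, unadjusted p = 0.00227). DESeq2 called Mmp13 over all 6 libraries, at an adjusted p of 0.00671. Limma-voom without sample quality weights did not (limma-voom adjusted p = 0.585). In the comparison of 5 libraries, 1.2% of all IDs tested had a lower log2 fold change than Mmp13.

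Mmp3 (stromelysin), which also activates other metalloproteinase precursors, was lower in part of the IPA libraries. Its level was 8.34, 13.2 and 5.83 CPM in untreated replicates 1, 2 and 3, and 7.04, 2.18 and 2.46 CPM in IPA replicates 1, 2 and 3. IPA replicates 2 and 3 lay below all untreated libraries, and IPA replicate 1 lay between untreated replicates 1 and 3. That library held 24 reads of Mmp3, and its 95% Poisson interval of 4.51 to 10.5 CPM did not reach the other IPA values.

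Without untreated replicate 2 Mmp3 had a log2 fold change of -1.30 ± 0.38 (SE), and it missed the threshold at an edgeR adjusted p of 0.0679. Its 95% interval ran from -2.11 to -0.50. When IPA replicate 1 was left out as well, Mmp3 stood at -1.66 ± 0.28 and passed (edgeR adjusted p = 0.00278). Leaving out any other library instead gave Mmp3 between -1.56 and -0.90, with edgeR adjusted p-values from 0.103 to 0.476, and the replicate block gave -0.90 (edgeR adjusted p = 0.433). Over all 6 libraries it was -1.64 ± 0.64 (edgeR adjusted p = 0.657). Mmp3 and Mmp13 lie in the same gene cluster; whether their differences are related was not tested.

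The gelatinase genes, whose enzymes cut denatured collagen and the type IV collagen of basement membranes, gave no call. Mmp9 stood at 229, 144 and 291 CPM in untreated replicates 1, 2 and 3, and at 262, 284 and 249 CPM in IPA replicates 1, 2 and 3. The IPA values lay within the untreated range. Its log2 fold change without untreated replicate 2 was -0.08 ± 0.14 (SE; edgeR adjusted p = 0.853). Its 95% interval covers folds from 0.775 to 1.15. With all 6 libraries the value was 0.06 ± 0.22, with an interval from 0.724 to 1.51-fold.

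Mmp2, the other gelatinase, had at most 51 reads in a library. It had 24, 1 and 51 reads in untreated replicates 1, 2 and 3, or 1.18, 0.017 and 0.965 CPM. In IPA replicates 1, 2 and 3 it had 1, 34 and 17 reads, or 0.293, 0.78 and 0.414 CPM. The single reads in untreated replicate 2 and IPA replicate 1 are under the 3 counts taken here as the floor. Untreated replicate 2, the deepest library, was thus the lowest of all. The log2 fold change of Mmp2 was -0.52 ± 1.20 over all 6 libraries (SE; edgeR adjusted p = 0.884), with an interval from 0.0973 to 4.99-fold. Without untreated replicate 2 it was -1.01 ± 0.56 (edgeR adjusted p = 0.386), or 2.02-fold lower, with an interval from 0.22 to 1.12-fold.

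Mmp14, the membrane-anchored metalloproteinase that cuts collagen at the cell surface and activates the Mmp2 precursor, stood at 57.3, 100.4 and 89.3 CPM in untreated replicates 1, 2 and 3. In IPA replicates 1, 2 and 3 it stood at 67.7, 83.1 and 87.0 CPM, inside the untreated range. Untreated replicates 1 and 3 differed 1.56-fold in this gene, more than any IPA pair. In the fit it was 0.02 ± 0.17 on the log2 scale without untreated replicate 2 (SE; edgeR adjusted p = 0.977) and -0.33 ± 0.33 with it. The interval without it ran from 0.795 to 1.29-fold.

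**Figure D2:**
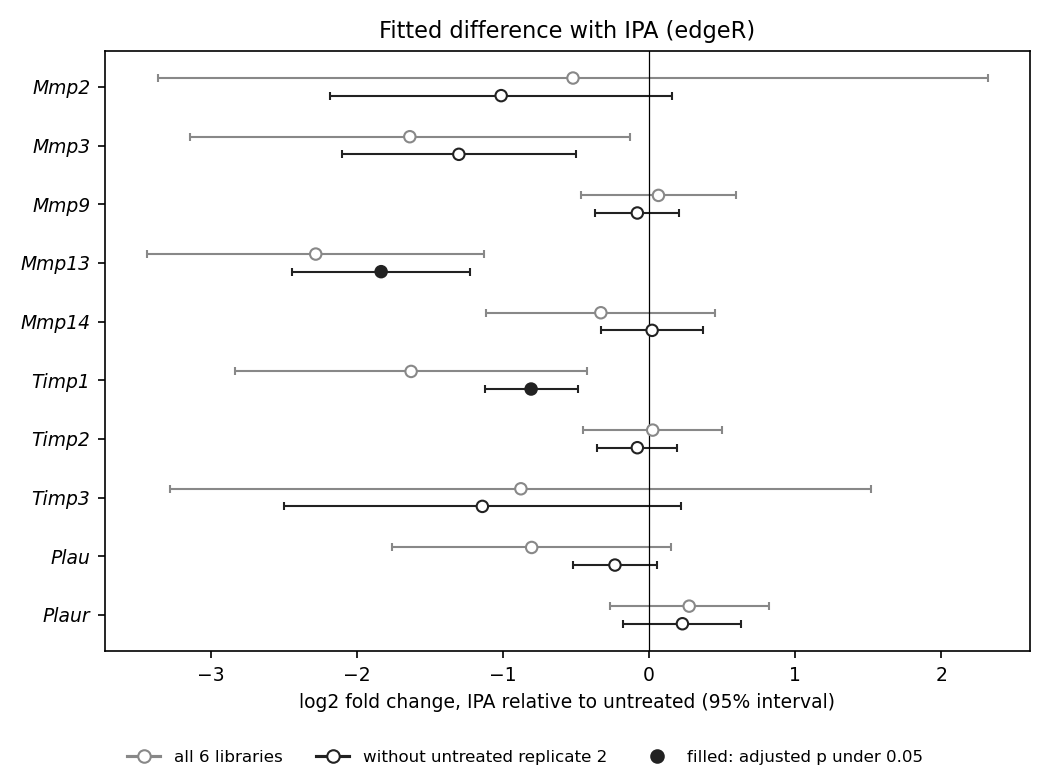
Log2 fold change of each gene with IPA relative to untreated (horizontal axis) with its 95% interval, from edgeR over all 6 libraries (grey) and without untreated replicate 2 (black); filled points have an adjusted p under 0.05. Only the black points of Mmp13 (-1.84) and Timp1 (-0.81) are filled, and the intervals of Mmp2 and Timp3 are the widest.

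Of the 3 inhibitor genes, Timp1 was the one called. Timp1 encodes a secreted inhibitor that also binds the precursor of Mmp9. Its level was 46.4, 126 and 53.6 CPM in untreated replicates 1, 2 and 3, and 33.1, 31.4 and 28.4 CPM in IPA replicates 1, 2 and 3. The groups did not overlap, and untreated replicate 2 held 2.51 times the mean of the other untreated libraries. The means were 75.2 ± 43.8 CPM untreated and 31.0 ± 2.37 CPM with IPA (SD, n = 3 each).

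Timp1 had a log2 fold change of -0.81 ± 0.15 without untreated replicate 2 (SE; edgeR adjusted p = 0.0056), with a 95% interval of -1.13 to -0.49. With all 6 libraries it was -1.63 ± 0.51 (edgeR adjusted p = 0.657, unadjusted p = 0.0151). The Timp1 fold thus moved from 1.75-fold to 3.1-fold lower when the outlying library entered, while the spread grew more than the difference. In the comparison of 5 libraries, 8.5% of all IDs tested had a lower log2 fold change.

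Timp2, which inhibits metalloproteinases and with Mmp14 docks the Mmp2 precursor at the membrane, stood at 189, 115 and 190 CPM in untreated replicates 1, 2 and 3. In IPA replicates 1, 2 and 3 it stood at 174, 200.1 and 203 CPM. In CPM, which carry no TMM scaling, IPA replicates 2 and 3 were above all untreated libraries and IPA replicate 1 was not. This order depends on the scaling. Without untreated replicate 2, the TMM factors were 1.02 to 1.04 for IPA and 0.947 and 0.965 for untreated replicates 1 and 3. The log2 fold change of Timp2 was -0.08 ± 0.13 without untreated replicate 2 (SE, edgeR adjusted p = 0.844), with an interval from 0.782 to 1.14-fold. With that library it was 0.02 ± 0.20 (edgeR adjusted p = 0.97).

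Timp3, the inhibitor that stays bound to the matrix, had few reads in every library. It had 25, 9 and 34 reads in untreated replicates 1, 2 and 3, and 0, 24 and 18 reads in IPA replicates 1, 2 and 3. In CPM these were 1.23, 0.153 and 0.643 untreated, and 0, 0.551 and 0.439 with IPA. The 0 in IPA replicate 1 allows up to 0.88 CPM by the floor of 3 counts, or 1.08 CPM as the upper end of the exact Poisson interval, and both are above 4 of the other 5 values. The log2 fold change of -1.14 ± 0.65 without untreated replicate 2 did not pass (SE; edgeR adjusted p = 0.407), nor did that of -0.88 ± 1.02 over all 6 libraries (edgeR adjusted p = 0.781).

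Neither gene of the urokinase pair passed the test. Plau stood at 188, 405 and 248 CPM in untreated replicates 1, 2 and 3, and at 197, 203 and 199 CPM in IPA replicates 1, 2 and 3. In CPM, which carry no TMM scaling, the IPA libraries were close together and inside the untreated range, of which untreated replicate 2 formed the top. Without untreated replicate 2, the TMM factors were 0.947 for untreated replicate 1 and 1.02 to 1.04 for IPA. The order of untreated replicate 1 and the IPA libraries therefore depends on the scaling. The log2 fold change of Plau was -0.23 ± 0.14 without that library (SE; edgeR adjusted p = 0.421), with a 95% interval of -0.52 to 0.05, and -0.80 ± 0.40 with it.

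Plaur stood at 14.2, 10.9 and 16.9 CPM in untreated replicates 1, 2 and 3, and at 19.4, 18.3 and 21.0 CPM in IPA replicates 1, 2 and 3. All IPA libraries were above all untreated libraries, with means of 14.0 ± 3.01 CPM untreated and 19.6 ± 1.35 CPM with IPA (SD, n = 3 each). The log2 fold change was 0.23 ± 0.19 without untreated replicate 2 (SE; edgeR adjusted p = 0.635) and 0.27 ± 0.23 over all 6 libraries. Its interval without that library ran from 0.885 to 1.55-fold.

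Read over the 10 genes, the comparison of all 6 libraries called 0 of 10 higher and 0 of 10 lower (edgeR), against a background of 0% of 24935 IDs called in either direction. Before adjustment, 3 of the 10 (Mmp13, Timp1 and Mmp3) and 6.26% of all IDs had p under 0.05. DESeq2 on the same libraries gave 8 of the 10 an adjusted p, all but Mmp2 and Timp3. It called 1 of these 8 lower, against a background of 0.341% of IDs called lower. Limma-voom without sample quality weights called 0 of 10 lower, against 0%. With these weights it called 3 of 10 lower (Mmp13, Timp1 and Mmp3), against 3.03%. Without untreated replicate 2, edgeR called 2 of 10 lower and 0 of 10 higher, against backgrounds of 2.2% and 1.26%. Mmp3 was called lower beside them with limma-voom (background 3.94%), limma-voom with quality weights (4.24%), no filter on low counts (2.17%) and without IPA replicate 1 (3.05%). The median log2 fold change of the 10 was -0.52 in that comparison and -0.66 over all 6 libraries, beside -0.04 and -0.08 over all IDs tested. With 2 calls among 10 genes chosen with earlier results of these data known, no statement is made about the group as a whole.

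Counted by overlap, IPA lay below untreated in 2 of the 10 (Mmp13 and Timp1) and above in 1 of the 10 (Plaur) over all 6 libraries. The same holds for 6.38% and 15.7% of all IDs. Without untreated replicate 2, the listed CPM of Mmp2 and Timp3 also lay below, giving 4 of 10 against 13.9% of IDs, and Plaur was the only one above, against 19.8%. For Mmp2 and Timp3 this order rests on 1 and 0 reads in IPA replicate 1, whose Poisson intervals reach 1.63 and 1.08 CPM, so neither can be said to lie below the untreated libraries. CPM values carry no scaling between libraries other than their totals, and TMM, the scaling used in the fits, gave the IPA libraries factors of 1.06 to 1.11 and untreated replicate 2 a factor of 0.754 over all 6 libraries.

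**Figure D3:**
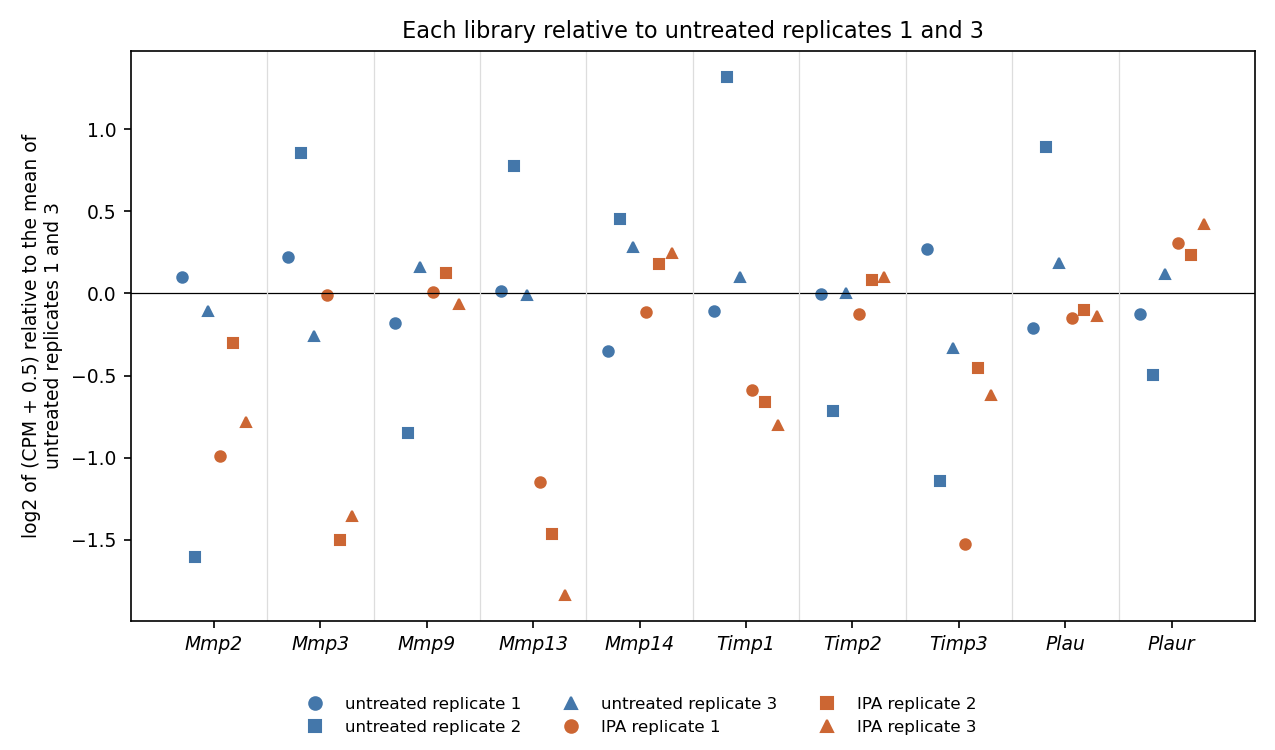
Each library's level relative to the mean of untreated replicates 1 and 3, as log2 of CPM with 0.5 added (vertical axis), for the 10 genes. Untreated replicate 2 (blue square) is above 0 for Mmp3, Mmp13, Mmp14, Timp1 and Plau and below 0 for the other 5. The 3 IPA libraries (orange) are all below 0 for Mmp2, Mmp3, Mmp13, Timp1, Timp3 and Plau, though for Plau only at -0.148 to -0.103. For Mmp3, IPA replicate 1 is only at -0.009. That library holds 1 read of Mmp2 and 0 of Timp3. The 3 IPA libraries are below every untreated library only for Mmp13 and Timp1.

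Untreated replicate 2 departed from its group in a mixed pattern. In CPM, 5 of the 10 genes were higher there than the mean of untreated replicates 1 and 3, and 5 were lower. Timp1 was 2.51 times that mean, Mmp3 1.87 times, Plau 1.85 times, Mmp13 1.75 times and Mmp14 1.37 times. Plaur was at 0.7 of it, Timp2 at 0.607, Mmp9 at 0.553, Timp3 at 0.163 and Mmp2 at 0.0158. The 5 genes that were higher in this library are those whose fitted fold change was more negative with it than without it, which follows from the averaging. On the TMM-scaled log2 scale, the departure of Timp1 was 1.77, and 33.4% of all IDs departed further. Mmp2 departed by -3.81, and 7.79% of IDs departed further. The interquartile range of this departure over all IDs was 2.27, against 0.618 between untreated replicates 3 and 1.

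Profiles were compared among the 8 members with a mean of at least 1 CPM, as the root mean square difference of log2 CPM after each gene was centred on its mean. Over all 6 libraries the closest of 28 pairs were Mmp9 and Timp2 (0.14), Timp2 and Plaur (0.179), and Mmp9 and Plaur (0.187). Over the 5 libraries without untreated replicate 2 they were Mmp9 and Plau (0.09), Mmp9 and Timp2 (0.144), and Timp2 and Plau (0.155). Mmp9 and Timp2 were thus among the closest pairs in both. The measure is also small for any genes that vary little between libraries, and it uses CPM without TMM scaling. In untreated replicate 2, Mmp9 and Timp2 stood at 0.553 and 0.607 of the mean of untreated replicates 1 and 3. Whether the pair shares a response to IPA was not tested.

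Ratios of 2 genes within a library need no scaling between libraries, and 6 were taken for partners that bind each other or inhibitors of one kind. The Mmp9 to Timp1 count ratio was 4.95, 1.15 and 5.43 in untreated replicates 1, 2 and 3, and 7.86, 9.05 and 8.75 in IPA replicates 1, 2 and 3. Every IPA library was above every untreated one. The ratio was 1.65-fold higher with IPA without untreated replicate 2 and 2.72-fold higher with it. The two-sided exact permutation p was 0.1 in both, the smallest these sample numbers allow (0.2 after Benjamini-Hochberg adjustment over the 6 ratios).

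The Mmp13 to Timp1 ratio was 0.184, 0.117 and 0.156 in untreated replicates 1, 2 and 3, and 0.11, 0.0873 and 0.0707 in IPA replicates 1, 2 and 3. The ratio was lower in all IPA libraries than in any untreated one, though the nearest values, 0.11 and 0.117, were close. The difference was 1.92-fold without untreated replicate 2 and 1.7-fold with it (two-sided exact permutation p = 0.1, adjusted 0.2, in both). The 0.11, from IPA replicate 1, rests on 12 reads of Mmp13. With 1 CPM added to each gene instead of 0.5 counts, the log2 difference was -0.485 over all 6 libraries. The two-sided exact permutation p was then 0.2, above the smallest possible. The Plau to Plaur ratio was 13.3, 37.2 and 14.7 untreated and 10.1, 11.1 and 9.45 with IPA, again without overlap. It was 1.37-fold lower without untreated replicate 2 and 1.9-fold lower with it (two-sided exact permutation p = 0.1, adjusted 0.2, in both). Mmp13, Timp1 and Plaur each separated the groups alone in CPM, so the ratios that hold them are not separate from those differences. No share over other gene pairs was taken.

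The other ratios overlapped between the groups over all 6 libraries. Mmp14 to Timp2 ran from 0.303 to 0.873 untreated and from 0.391 to 0.429 with IPA (two-sided exact permutation p = 0.7, adjusted 0.7). Mmp3 to Timp1 ran from 0.105 to 0.18 untreated and from 0.0698 to 0.216 with IPA, IPA replicate 1 being the highest of all (two-sided exact permutation p = 0.6, adjusted 0.7). Timp3 to Timp2 rested on at most 34 reads of Timp3 a library and gave a two-sided exact permutation p of 0.4 (adjusted 0.6). Without untreated replicate 2 its groups did not overlap, at 2.75-fold lower with IPA (two-sided exact permutation p = 0.2, adjusted 0.3). In IPA replicate 1 this ratio rests on 0 reads of Timp3.

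**Figure D4:**
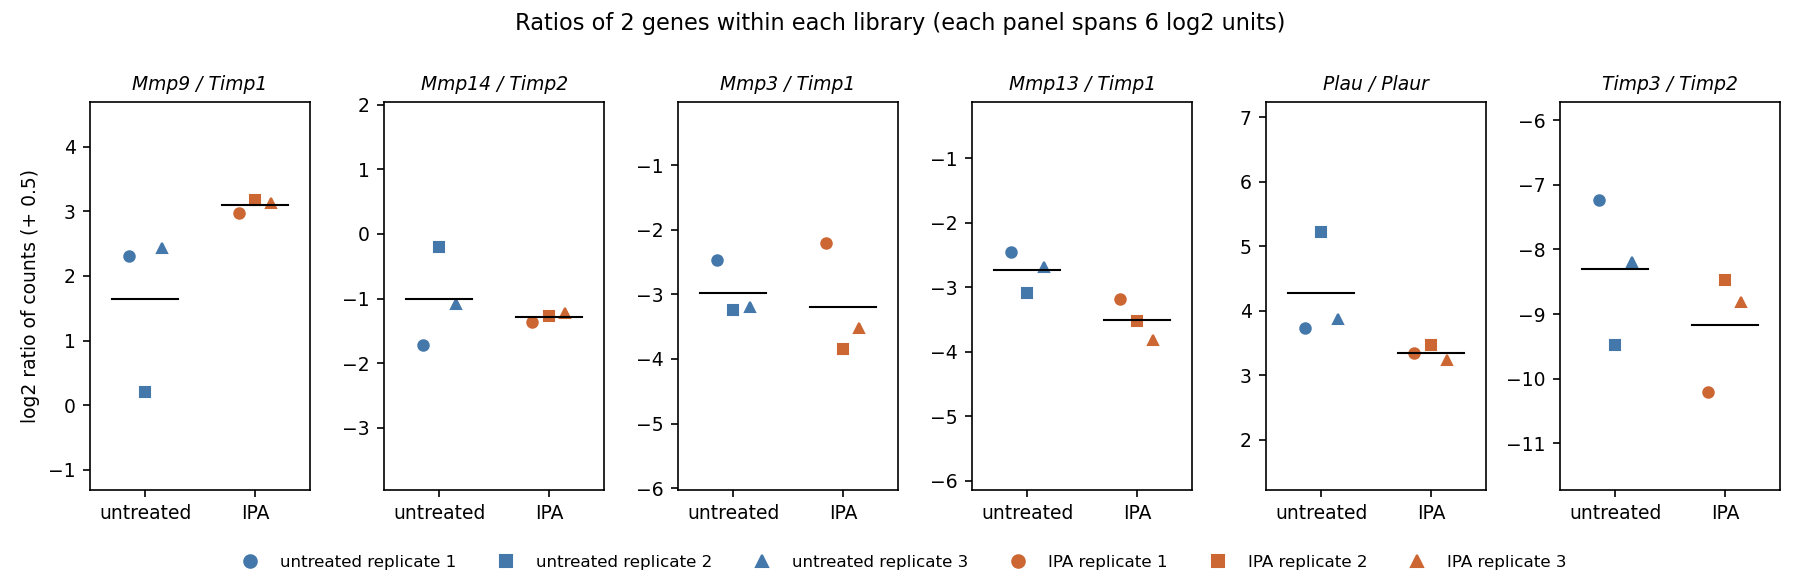
Log2 ratio of the counts of 2 genes within each library (0.5 added to each count; every panel spans the same range), for untreated (blue) and IPA (orange) libraries, with group means as lines. With 0.5 added to each count, the groups do not overlap for Mmp9 to Timp1, Mmp13 to Timp1 and Plau to Plaur. For Mmp13 to Timp1 the nearest values are close, and IPA replicate 1 holds 12 reads of Mmp13.

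Leaving out further libraries did not end the calls of Mmp13 and Timp1 made without untreated replicate 2. With any 1 of the other 5 libraries removed as well, the log2 fold change of Mmp13 ran from -1.89 to -1.59 and its edgeR adjusted p from 0.000667 to 0.0166. For Timp1 the range was -0.90 to -0.71, with adjusted p-values from 0.00659 to 0.0493. Removing an untreated library there leaves 1 untreated library, whose spread is taken from the IPA libraries. From all 6 libraries, the removal of any library other than untreated replicate 2 left both genes uncalled.

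**Figure D5:**
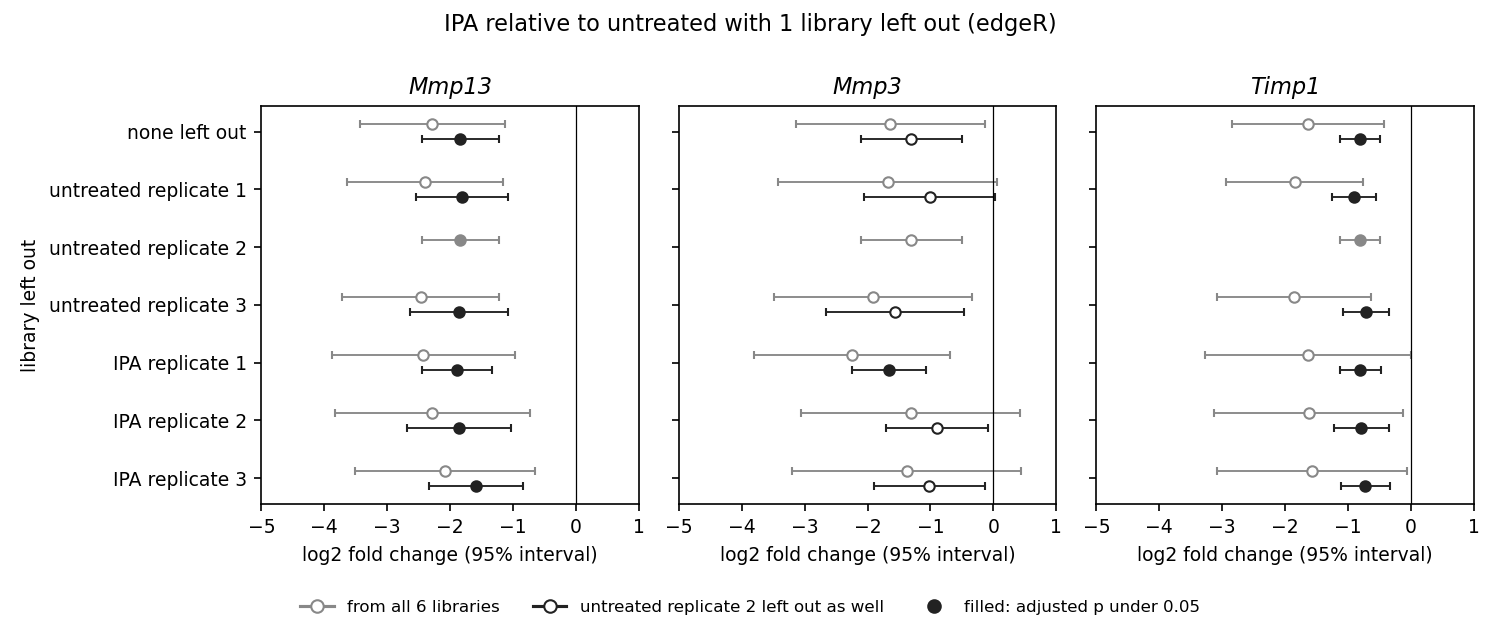
Log2 fold change of Mmp13, Mmp3 and Timp1 with IPA and its 95% interval (edgeR) when the library named on the vertical axis is left out, from all 6 libraries (grey) and with untreated replicate 2 left out as well (black). Filled points have an adjusted p under 0.05: every black point of Mmp13 and Timp1, their grey points without untreated replicate 2, and for Mmp3 the black point without IPA replicate 1.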

How the data were processed

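RNA of 6 samples of 4T1 cells was sequenced by the authors, who deposited unnormalized counts by Ensembl ID, per the file headers; all are whole numbers. The submitters' processing notes name the builds GRCm38 and mm10. For the aligner, counter, annotation release and strand setting, nothing is given in the sources used here. Groups and replicate numbers came from sample titles. Names of the 10 genes were given with their IDs; the reference table of 49997 genes has 0 Ensembl IDs, so 82 further symbols in 9 lists (other proteases, inhibitors, cell type markers) were not analysed here.

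All 35304 IDs entered edgeR 4.0.16 (robust quasi-likelihood F-test, TMM, filterByExpr) in R 4.3.3, with Benjamini-Hochberg adjustment over the IDs that passed the filter: 24935 with all 6 libraries and 25592 without untreated replicate 2. All 10 genes passed in each. Calls are at an adjusted p under 0.05. The standard error is the log2 fold change divided by the square root of F, and 95% intervals use it with the fit's degrees of freedom; both are approximate for genes with few reads. CPM were computed from library totals without TMM factors, so their ratios differ from fitted folds. Intervals of single libraries are exact Poisson, at 95%, and cover counting error only, as do floors of 3 counts. Ratios had 0.5 added to each count. Alternatives were DESeq2 1.42.0, limma 3.58.1 (voom, with and without sample quality weights), other scaling factors and filters, the replicate block and leaving out libraries. DESeq2 gave Mmp2 and Timp3 no adjusted p in either comparison. The 10 genes, the lists and the comparison without untreated replicate 2 were chosen with earlier results of these data known. The rule for named genes was to name all 10.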

Additional observations from a re-analysis of the deposited data

How the results depend on the processing

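Over all 6 libraries, 0 of the 10 genes were called lower with edgeR and 0 with limma-voom without sample quality weights. The number was 1 with DESeq2 (Mmp13, adjusted p = 0.00671) and 3 with limma-voom and sample quality weights (Mmp13, Timp1 and Mmp3). Leaving out 1 library gave 0 to 2, the 2 coming from leaving out untreated replicate 2. None was called higher under any setting run. Without untreated replicate 2 the number called lower was 2 or 3 under all 14 alternatives; Mmp13 and Timp1 passed in each, and Mmp3 also passed in 4 of them: limma-voom (-1.48), limma-voom with quality weights (-1.58), no filter on low counts (-1.26) and without IPA replicate 1 (-1.66). For these the cause was not tested. Among the alternatives that kept untreated replicates 1 and 3, the share of all IDs called lower ran from 0.642% to 4.24%. The lowest share came without IPA replicate 3 and the highest with limma-voom and quality weights.

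Genes that were not called changed sign under some settings. Over all 6 libraries, Mmp2 was 0.824 with limma-voom and 0.022 with the replicate block; Mmp9 was -0.004, Mmp14 0.105 and Timp2 -0.014 with quality weights; and Timp2 was -0.009 under the filter at 1 CPM and -0.015 when scaled by upper quartiles. With 1 library left out, Mmp2 ran from -1.03 to 0.01, Mmp9 from -0.081 to 0.25, Mmp14 from -0.51 to 0.02 and Timp2 from -0.081 to 0.13. Without untreated replicate 2, library totals gave Mmp9 0.024 and Timp2 0.025, and the replicate block gave Mmp14 -0.012; leaving out a further library gave Mmp9 -0.23 to 0.091, Mmp14 -0.25 to 0.37 and Timp2 -0.10 to 0.028. Library totals moved the median of all IDs by 0.208 over all 6 libraries and by 0.104 without untreated replicate 2.

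With 1 library left out, the log2 ratio difference of Mmp14 to Timp2 ran from -0.638 to 0.124 and that of Mmp3 to Timp1 from -0.71 to 0.104. No value of Timp3 to Timp2 with a pseudocount of 0 was possible, since Timp3 had 0 reads in IPA replicate 1.

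With the replicate block, 0 of the 10 were called lower over all 6 libraries, against 0% of all IDs tested. Without untreated replicate 2 it called 2 lower, against 0.789%. The correlation between the deviations of samples 1, 2 and 3 and those of the same number was -0.0771, 0.0183 and 0.161, and 3 of 6 samples correlated best with their own number, so the numbers were not taken to pair the samples. Depth limits Mmp2, Timp3, Mmp3 and Mmp13 most in IPA replicate 1.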
